A study of Mus musculus with 20 samples.

Results

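The genes described here encode the proteasome in the liver of mice made diabetic with streptozotocin and fed phloridzin. They were chosen by symbol, as all genes named Psma, Psmb, Psmc or Psmd followed by a number, with Psmb8 and Psmb9 left out. This gave 38 of the 18193 genes with a probe set annotated to a single gene, and all 38 were among the 12955 genes kept for testing. Of the 38, 17 encode the core particle, 17 the regulatory particle and 3 (Psmd5, Psmd9 and Psmd10) chaperones of regulatory particle assembly. Psmc3ip matched the symbol rule but encodes a protein of meiotic recombination and no proteasome subunit.

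Liver RNA of 20 male BALB/c mice, 6 weeks old when they arrived, was hybridised to Affymetrix arrays, 1 array per mouse and 5 mice in each of 4 groups. The untreated group received no injection and ate AIN93G, a purified diet. The STZ group had been injected intraperitoneally with streptozotocin (STZ, which destroys pancreatic beta cells and so removes insulin) at 185 mg/kg and ate the same diet, and the 2 phloridzin groups had the same injection and ate AIN93G with 0.1% or 0.5% phloridzin, a glucoside of apple trees that blocks glucose uptake by sodium-coupled transporters. The diets lasted 14 days, and injected mice entered them with a blood glucose of 330 to 590 mg/dL. The untreated mice had no injection of the buffer, so the effects of STZ, of the diabetes that follows it and of the injection itself cannot be told apart. Each group had 6 mice in the study, of which 5 had an array, and whole liver was used, so that fewer cells of a type and less RNA per cell cannot be told apart.

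The proteasome degrades proteins tagged with ubiquitin. Its core particle is a barrel of 4 stacked rings. The outer rings are made of alpha subunits (Psma genes), which gate the entry, and the inner rings of beta subunits (Psmb genes), of which Psmb5, Psmb6 and Psmb7 carry the peptide-cutting sites. Psmb8, Psmb9 and Psmb10 replace them in the immunoproteasome, which interferon induces. The regulatory particle caps the barrel: a base of ATPases (Psmc genes) unfolds the substrate, and a lid removes its ubiquitin. Psmd genes encode the lid, the other base subunits, among them ubiquitin receptors, and some assembly chaperones.

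The stretch of 250 bases before the annotated start of transcription is shown for the 3 genes called in all 3 comparisons with untreated mice, Psmb10, Psmd9 and Psma5, and for Psmc2, the only regulatory particle gene called in any comparison. Psmc2 has 2 annotated starts. The sequences are from RefSeq on build GRCm38.p6, written 5′ to 3′ on the strand of the gene, with matches to the motifs named below in capitals.

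Psmb10, chr8:105938393-105938642 (- strand): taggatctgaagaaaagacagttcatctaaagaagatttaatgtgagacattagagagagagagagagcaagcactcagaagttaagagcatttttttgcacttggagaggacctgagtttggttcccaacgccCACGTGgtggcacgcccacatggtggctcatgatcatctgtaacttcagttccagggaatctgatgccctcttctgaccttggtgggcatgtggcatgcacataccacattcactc
Psmd9, chr5:123227940-123228189 (+ strand): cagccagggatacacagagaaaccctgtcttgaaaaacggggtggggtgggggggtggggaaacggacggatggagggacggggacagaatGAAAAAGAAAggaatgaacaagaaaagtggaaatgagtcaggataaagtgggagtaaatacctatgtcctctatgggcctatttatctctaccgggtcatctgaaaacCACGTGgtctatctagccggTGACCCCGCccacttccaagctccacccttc
Psma5, chr3:108256676-108256925 (+ strand): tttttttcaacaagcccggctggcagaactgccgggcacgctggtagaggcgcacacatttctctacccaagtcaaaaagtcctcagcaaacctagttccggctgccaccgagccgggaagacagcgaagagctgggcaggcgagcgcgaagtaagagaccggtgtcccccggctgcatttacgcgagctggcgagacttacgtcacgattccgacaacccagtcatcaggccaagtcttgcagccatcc
Psmc2, chr5:21785025-21785274 (+ strand): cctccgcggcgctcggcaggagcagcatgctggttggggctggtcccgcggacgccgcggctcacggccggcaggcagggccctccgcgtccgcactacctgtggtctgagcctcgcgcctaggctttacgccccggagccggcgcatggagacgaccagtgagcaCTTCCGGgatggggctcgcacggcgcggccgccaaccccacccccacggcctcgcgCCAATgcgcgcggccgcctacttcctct
Psmc2, chr5:21786497-21786746 (+ strand): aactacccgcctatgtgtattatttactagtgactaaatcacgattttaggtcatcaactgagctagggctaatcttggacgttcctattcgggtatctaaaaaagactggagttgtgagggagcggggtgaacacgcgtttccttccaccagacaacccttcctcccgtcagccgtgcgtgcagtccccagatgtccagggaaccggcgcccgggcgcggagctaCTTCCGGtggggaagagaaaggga

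6 short motifs were searched on both strands in windows of 300 bases, 250 before and 50 after each start. 31 of the 38 genes had a window, 33 windows in all, and the table held 32851 windows of the same length. The core of sites for ETS factors, CCGGAAG, was found in 12 of the 33 windows (36.4%) and in 8.86% of all windows, and the member windows that held it were 10 of 15 for the regulatory particle and 1 of 14 for the core particle. Both Psmc2 windows hold it (as CTTCCGG on the strand shown). The E-box CACGTG was in 3 windows (9.09%, against 7.15% of all windows), those of Psma4, Psmb10 and Psmd9. The core of the antioxidant response element, TGACNNNGC, which NRF1 and NRF2 bind, was in 5 windows (15.2%, against 12.4%), of Psmb5, Psmb6, Psmc6, Psmd9 and Psmd12. The interferon response core (GAAA, any 2 bases, GAAA) was in 3 windows (9.09%, against 3.44%), among them that of Psmd9 and not that of Psmb10. TTCNNNGAA, the gamma-activated site, was in 1 (3.03%, against 8.3%), and the CCAAT box in 13 (39.4%, against 37.4%). The Psma5 window shown holds none of the 6. No capitals of one motif overlap those of another in the sequences shown. A match says only that these letters occur in the window.

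The deposited signal of each probe set is linear and scaled so that the trimmed mean of every array is 100, and the median signal of an array lay between 11.2 and 17.1. Differences are of log2(signal + 16), folds are of the signal plus 16, and a gene was called where limma's p, adjusted by Benjamini and Hochberg over all 12955 genes, was under 0.05. A gene whose highest group mean was at or below 34.2, that is 2 times the highest array median, was read as at background. This holds for 3 of the 38: Psma8, a testis subunit, Psmb11, a thymus subunit, and Psmc3ip. The other 35 lay above it. The array of 0.1% phloridzin replicate 4 stood apart in its hybridisation controls, with a signal of bioD of 9793 against 1816 to 3210 on the other 19 arrays. None of the 7 hepatocyte markers was at background by the highest group mean. Their summed signal was 69220 to 80350 in untreated mice and 50690 to 73300 with STZ. It was 65740 to 148000 with 0.1% and 61050 to 72900 with 0.5% phloridzin.

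**Figure D1:**
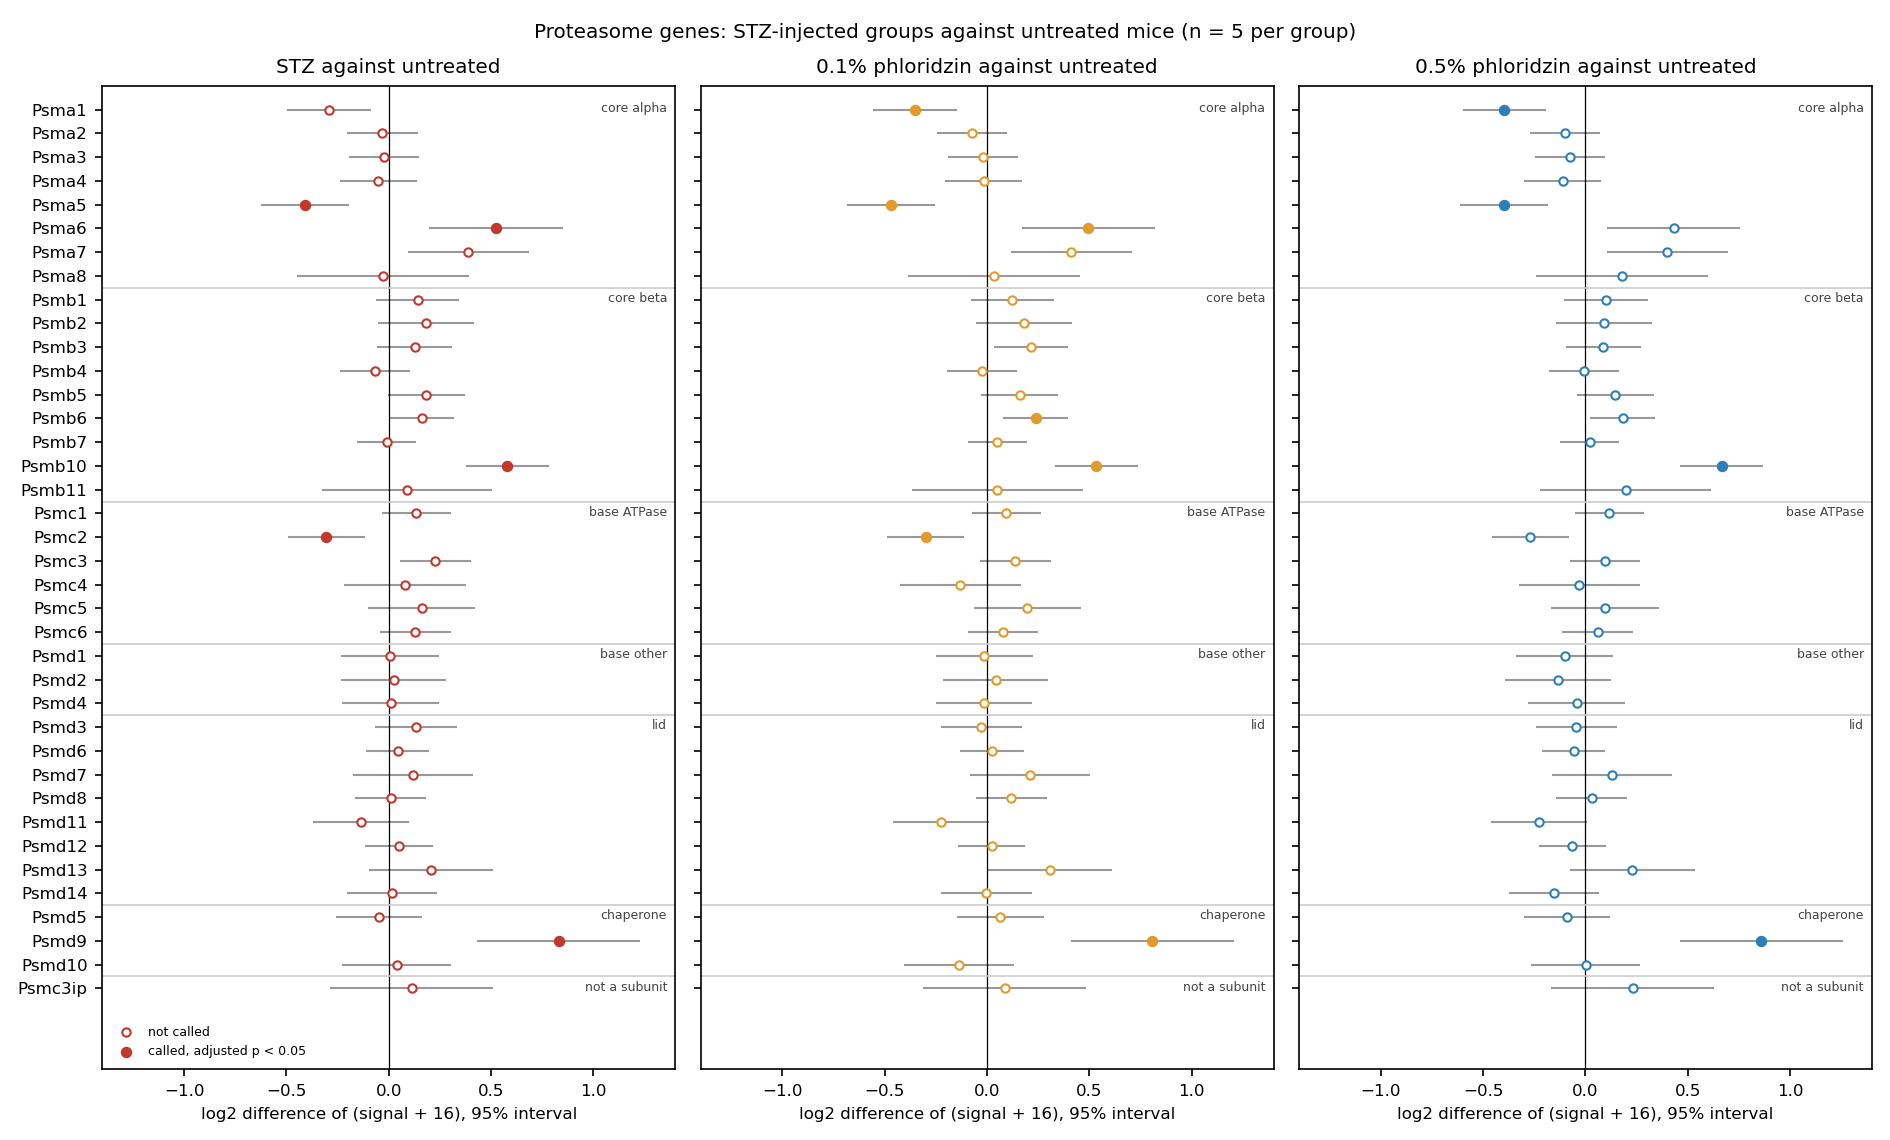
Log2 difference of (signal + 16) from untreated mice for each of the 38 genes (rows, ordered by place in the complex) in the STZ, 0.1% and 0.5% phloridzin groups, with 95% intervals of the fit; filled points are called at an adjusted p under 0.05. Psmb10 and Psmd9 lie to the right of 0 and Psma5 to the left in all 3 panels, and most other points lie near 0.

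STZ was first compared with untreated liver. 5 of the 38 genes were called, 3 higher and 2 lower (13.2%), against 13.8% of all 12955 genes (6.91% higher and 6.92% lower), so the share was close to the background. At an unadjusted p under 0.05, 9 of the 38 passed, against 28.4% of all genes. The called genes were Psmb10, Psmd9 and Psma6, higher, and Psma5 and Psmc2, lower. The median difference over the 38 was 0.07 log2 units, against −0.05 over all genes, 29 of the 38 differed by less than 0.2, and 27 lay above 0. The groups did not overlap for 3 genes, Psmb10, Psmd9 and Psma5, against 12.9% of all genes. 3 genes were called without untreated replicate 1, without untreated replicate 2, without STZ replicate 4 or without STZ replicate 5, each left out in turn.

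0.1% and 0.5% phloridzin were compared with the same 5 untreated mice, so the 3 comparisons share their controls. With 0.1% phloridzin 7 genes were called, 4 higher and 3 lower, against 16.8% of all genes (7.77% higher and 9.03% lower), and the groups did not overlap for 7 genes, against 13.2% of all genes. With 0.5% phloridzin 4 were called, 2 higher and 2 lower, against 12.7% (6.53% higher and 6.2% lower), and 5 did not overlap, against 11.2%. For 0.1% phloridzin the count was 4 without untreated replicate 1, without 0.1% phloridzin replicate 3 or without replicate 5 of that group, and 3 without untreated replicate 2. It was 5 without the array that stood apart. For 0.5% phloridzin the count was 7 without replicate 2 of that group. 7 genes were called in at least 1 of the 3 comparisons, 3 of them in all 3, and 31 in none.

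Psmb10, the inducible trypsin-like subunit that takes the place of Psmb7 in the immunoproteasome, gave the smallest p of the 38. Its signal was 297, 270.0, 265, 279 and 234 in the untreated mice and 494, 386, 387, 416 and 372 in the STZ mice. It was 409.8, 416, 346, 426 and 385 with 0.1% phloridzin and 417, 385, 421, 465 and 496 with 0.5%. All 15 injected mice lay above all 5 untreated mice. The mean rose from 269 ± 22.9 (SD, n = 5) to 411 ± 49.2 with STZ, 1.49-fold (log2 0.58 ± 0.10, SE, limma adjusted p = 0.00064). With 0.1% phloridzin it was 1.45-fold higher than in untreated mice (0.53, adjusted p = 0.00113), and with 0.5% 1.59-fold (0.67, adjusted p = 0.000182). A single probe set measures this gene.

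The other inducible subunits, Psmb8 and Psmb9, stand outside the symbol rule and are given for the comparison with Psmb10. Psmb8 had a mean of 424 with STZ and 297 in untreated mice, a difference of 0.46 ± 0.19 (adjusted p = 0.102), and of 0.44 and 0.46 with 0.1% and 0.5% phloridzin (adjusted p = 0.114 and 0.106). Psmb9 differed by 0.25 ± 0.25, 0.02 and −0.01 in the same order, with adjusted p = 0.543 at least. Neither passed the test in any of the 3 comparisons. Psme1, a subunit of the PA28 activator that interferon also induces, was called higher in all 3, by 0.31 ± 0.09, 0.36 and 0.46 (adjusted p = 0.0188, 0.00719 and 0.00166). Without STZ replicate 4 the first of these was not called (adjusted p = 0.0538).

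Since the inducible subunits are abundant in leukocytes, the leukocyte markers are given beside Psmb10. Of 6 T and NK cell markers 4 were measured, and their summed signal was 125 to 174 in untreated mice, 138 to 165 with STZ, 121 to 150 with 0.1% phloridzin and 116 to 182 with 0.5%, with overlap throughout. Cd3e, Cd8a and Gzma, 3 of these 4, were at background. Of the 4, 1 was called lower with STZ (adjusted p = 0.0428) and 0 with either phloridzin diet against untreated mice. The sum of 6 Kupffer cell markers was 1551 to 1917, 1549 to 2412, 1494 to 2489 and 1718 to 2159 in the same order, again with overlap and with Marco at background. One of them, Cd5l, was called higher with STZ (0.52 ± 0.14, adjusted p = 0.0166). Against untreated mice, 1 of the 6 was called higher with 0.1% and 1 with 0.5% phloridzin (adjusted p = 0.0153 and 0.0328). Of 5 B and plasma cell markers 4 were measured, with Cd79a, Cd79b and Ms4a1 at background and a sum of 83.4 to 124.6 in untreated mice, 44.2 to 79.0 with STZ, 37.7 to 91.3 with 0.1% and 50.6 to 82.6 with 0.5% phloridzin. The STZ and 0.5% phloridzin sums lay below all untreated sums, and Jchain, the marker above background, was called lower in all 3 comparisons (−0.73, −0.78 and −0.73, adjusted p = 0.00193, 0.00100 and 0.00232). Of 4 neutrophil markers 3 were measured, with Mpo at background and a sum of 126 to 209, 87.2 to 173, 82.9 to 242 and 105.4 to 155 in the same order. Their part in the Psmb10 result was not tested.

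**Figure D2:**
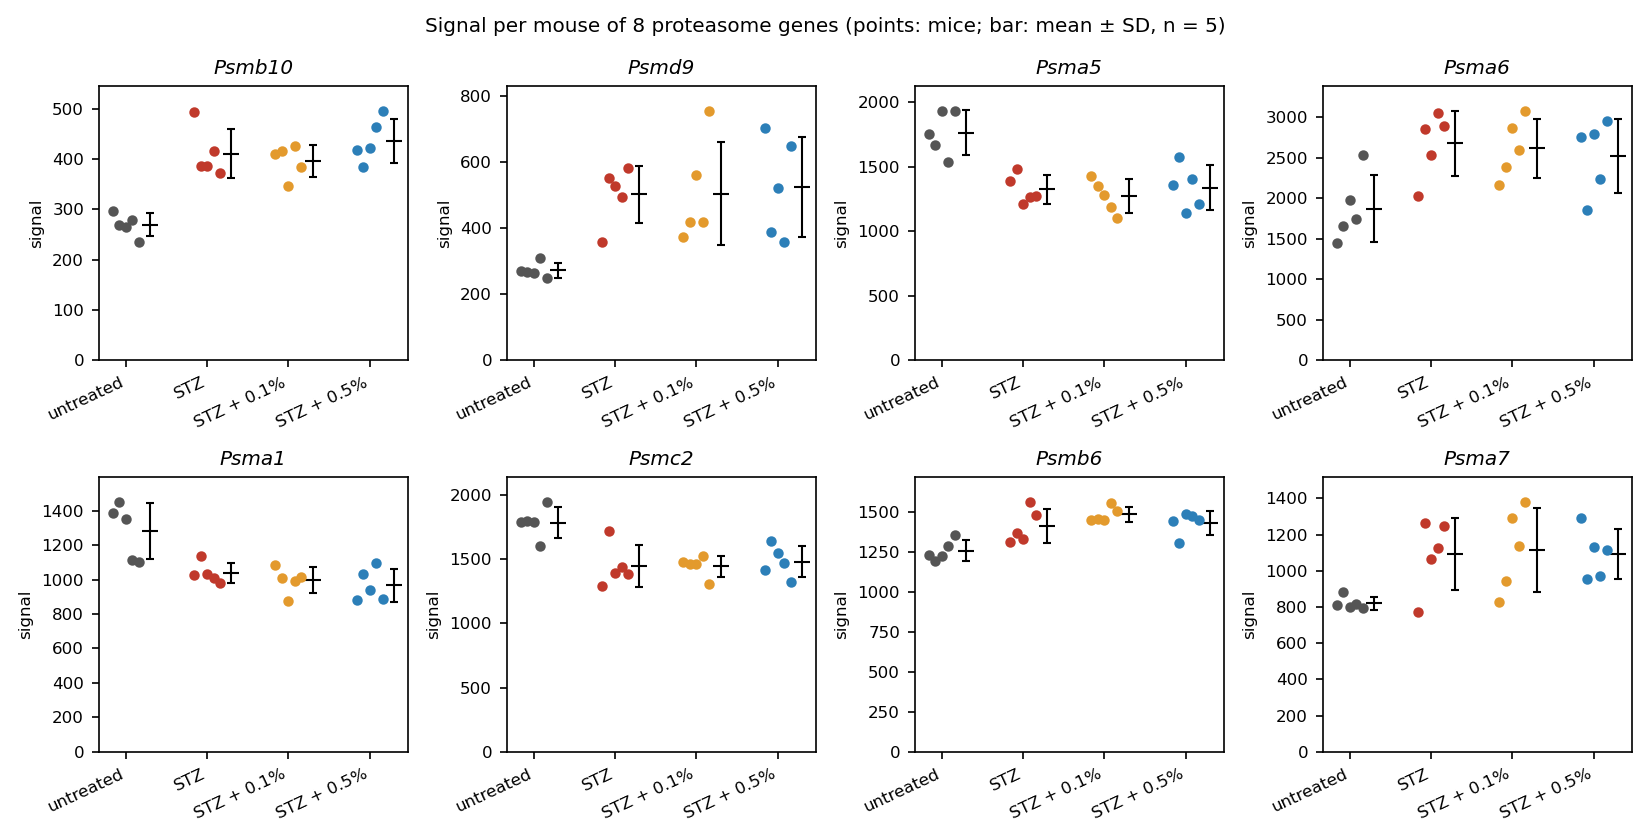
Signal per mouse (linear, arbitrary array units) of 8 genes in the 4 groups; points are mice, and the bar beside them is the mean ± SD (n = 5). All injected mice lie above the untreated mice for Psmb10 and Psmd9, and 14 of 15 lie below the untreated range for Psma5.

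The catalytic subunits of the standard core particle differed little. Psmb5, the chymotrypsin-like subunit, had a signal of 995, 988, 959, 971 and 1006 in untreated mice and 1183, 1057, 957, 1205 and 1221 with STZ, a difference of 0.18 ± 0.09 (adjusted p = 0.186). It was 1158, 1248, 934, 1009 and 1189 with 0.1% phloridzin and 1063, 1092, 1129, 1063 and 1107 with 0.5%. The 5 untreated values span a narrow range, and 13 of the 15 injected mice lay above it and 2 below it, but the gene was called in none of the comparisons.

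Psmb6, the caspase-like subunit, was 1229, 1189, 1225, 1284 and 1357 in untreated mice and 1311, 1366, 1330.2, 1558 and 1479 with STZ (0.16 ± 0.08, adjusted p = 0.170). It was 1449, 1456, 1449, 1554 and 1507 with 0.1% phloridzin, where it rose 1.18-fold (0.24 ± 0.08, adjusted p = 0.0376), and 1439, 1302, 1484, 1473 and 1447 with 0.5% (0.18, adjusted p = 0.122). All 5 mice on 0.1% phloridzin lay above all untreated mice. This call was lost in 8 of 20 fits that left out 1 array (untreated replicates 1 to 4 and 0.1% phloridzin replicates 2 to 5), where the highest adjusted p was 0.0884 and the difference kept to 0.22 to 0.26. It was also lost in a fit of the groups compared only (adjusted p = 0.0815).

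Psmb7, the trypsin-like subunit, was the steadiest of the 35 genes above background, with an SD within groups of 0.05 log2 units. It was 3591, 3578, 3503, 3473 and 3460.4 in untreated mice and 3653, 3291, 3463, 3563 and 3513 with STZ (−0.01 ± 0.07, 95% interval −0.15 to 0.13, adjusted p = 0.940). It was 3617, 3625, 3600.1, 3632 and 3764 with 0.1% phloridzin and 3750.1, 3772, 3589, 3448 and 3326 with 0.5%. The 0.1% phloridzin mice all lay above the untreated mice, by a mean of 0.05 log2 units (adjusted p = 0.666). The structural beta subunits Psmb1, Psmb2, Psmb3 and Psmb4 were called in no comparison. The 2 bright probe sets of Psmb3 differed in sign with STZ (0.13 and −0.25).

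Among the alpha subunits, changes ran in both directions. Of 8 measured, 1 rose and 1 fell with STZ, against 6.91% and 6.92% of all genes, and the median difference was −0.03. Psma5 was 1752, 1671, 1933, 1538 and 1932 in untreated mice and 1386, 1484, 1208, 1269 and 1275 with STZ. It was 1432, 1354, 1279.6, 1188 and 1103 with 0.1% phloridzin and 1355, 1578, 1143, 1408 and 1212 with 0.5%. Of 15 injected mice, 14 lay below the lowest untreated mouse. The mean fell from 1765 ± 171 (SD, n = 5) to 1324 ± 110.0 with STZ, 1.33-fold lower (−0.41 ± 0.10, adjusted p = 0.0124). It was 1.38-fold lower with 0.1% phloridzin (−0.47, adjusted p = 0.00449) and 1.32-fold lower with 0.5% (−0.40, adjusted p = 0.0156). Its other bright probe set differed by −0.25 with STZ and by −0.20 with either phloridzin diet. None of these passed (limma adjusted p over single-gene probe sets = 0.351, 0.436 and 0.491). With the mean of its probe sets the STZ difference was −0.32 (adjusted p = 0.0546).

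Psma1 was 1387, 1448, 1354, 1115 and 1101 in untreated mice and 1029, 1137, 1033, 1010.4 and 980.0 with STZ, a difference of −0.29 ± 0.10 that missed the threshold (adjusted p = 0.0507). It was 1087, 1011, 876, 993 and 1013 with 0.1% phloridzin and 879.8, 1032, 939.8, 1098 and 887 with 0.5%. It fell 1.28-fold with 0.1% (−0.35, adjusted p = 0.0172) and 1.32-fold with 0.5% (−0.40, adjusted p = 0.0112), and in both groups all mice lay below all untreated mice. The 0.1% call was lost without untreated replicate 2 or 0.1% phloridzin replicate 3 (adjusted p = 0.0529 at most). With the mean of its 4 probe sets, of which the other 3 have mean signals of 8.0 to 25.8, the difference was −0.15 with 0.1% and −0.04 with 0.5% phloridzin (adjusted p = 0.254 and 0.839).

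Psma6 moved in the opposite direction. It was 1451, 1651, 1973, 1743 and 2535 in untreated mice and 2032, 2855, 2536, 3052 and 2892 with STZ, 1.44-fold higher (0.52 ± 0.16, adjusted p = 0.0300). It was 2162, 2385, 2861, 2595 and 3074 with 0.1% phloridzin (0.50, adjusted p = 0.0339) and 2752, 1855, 2789, 2235 and 2956 with 0.5% (0.43, adjusted p = 0.0744). The untreated mouse of replicate 5 lay within the range of every injected group. The probe set is one that can bind related transcripts (suffix x), and the other bright probe set of Psma6 differed by 0.09 with STZ (adjusted p = 0.529), so the rise rests on 1 of 2 bright probe sets. With the mean of probe sets it was 0.17 with STZ and 0.18 with 0.1% phloridzin (adjusted p = 0.241 and 0.202). The STZ call was also lost when untreated mouse 1, 2 or 4 or STZ mouse 2, 4 or 5 (by replicate number) was left out, with an adjusted p of 0.0888 at most. The 0.1% phloridzin call was lost without untreated replicate 1, 2 or 4 or 0.1% phloridzin replicate 3, 4 or 5 (adjusted p = 0.0982 at most).

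Psma7 was 809, 885, 799, 817 and 794 in untreated mice and 771, 1264, 1067, 1128 and 1247 with STZ (0.39 ± 0.14, adjusted p = 0.0725). It was 830.1, 942, 1289.7, 1137 and 1378 with 0.1% phloridzin (0.41, adjusted p = 0.0508) and 1294, 957, 1129.7, 969 and 1118 with 0.5% (0.40, adjusted p = 0.0683). 13 of 15 injected mice lay above the untreated range and 1 below it, and the gene missed the threshold in all 3. Both of its probe sets were higher with STZ (0.39 and 0.27). The second differed by 0.30 with 0.1% and by 0.21 with 0.5% phloridzin (limma adjusted p over single-gene probe sets = 0.0442 and 0.218). Psma2, Psma3 and Psma4 were not called in any comparison, and Psma3 differed by −0.02 ± 0.08 with STZ (2604 ± 205 against 2646 ± 147, SD, n = 5).

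In the regulatory particle, 1 of 17 genes was called with STZ (5.88%, against 13.8% of all genes) and none was called higher (against 6.91% of all genes). 15 of the 17 differences lay above 0 (88.2%, against 42.7% of all genes), with a median of 0.05 and a range of −0.30 to 0.23. Against the same untreated mice, 10 of the 17 lay above 0 with 0.1% phloridzin (58.8%, against 43.6%). With 0.5% phloridzin 7 did (41.2%, against 47.9%). Psmc2, an ATPase of the base, was 1788, 1799, 1794, 1605 and 1943 in untreated mice and 1292, 1724, 1391, 1442 and 1386 with STZ, a fall of 1.24-fold (−0.30 ± 0.09, adjusted p = 0.0289). It was 1477, 1463, 1461, 1522 and 1308 with 0.1% phloridzin (−0.30, adjusted p = 0.0267) and 1416, 1641, 1546, 1475 and 1322 with 0.5% (−0.27, adjusted p = 0.0547). 13 of 15 injected mice lay below the untreated range. This too is a probe set of the suffix x, and the other bright probe set of Psmc2 differed by −0.04 with STZ (adjusted p = 0.843). With median centring the differences were −0.26 with STZ and −0.26 with 0.1% phloridzin, and neither was called (adjusted p = 0.0625 and 0.0535), nor was that of STZ in a fit of the groups compared only (adjusted p = 0.0571). With the mean of probe sets they were −0.10 and −0.09 (adjusted p = 0.467 and 0.495). The STZ call was lost when untreated mouse 1, 2, 3 or 5 or STZ mouse 1, 3, 4 or 5 was left out, with an adjusted p of 0.0692 at most, and that of 0.1% phloridzin without untreated replicate 1, 2, 3 or 5 or 0.1% phloridzin replicate 5 (adjusted p = 0.0778 at most).

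The other 5 ATPases were not called. The probe sets of Psmc6 disagreed: with 0.1% phloridzin against untreated mice the brightest differed by 0.08, and the other 2, with mean signals of 418 and 58.0, by −0.68 and −0.71 (limma adjusted p over single-gene probe sets = 0.00723 and 0.0375). Psmc3 had the second smallest p of the ATPases (0.23 ± 0.08, 1173 ± 118 with STZ against 996 ± 59.0, SD, n = 5, adjusted p = 0.0719). Psmc4 was 1233 ± 317 with STZ and 1144 ± 146 in untreated mice (0.08 ± 0.14, adjusted p = 0.757). Psmd4, the ubiquitin receptor of the base, was 883, 961, 925, 1018 and 1047 in untreated mice and 1104, 882, 801, 1199 and 924 with STZ (0.01 ± 0.11, adjusted p = 0.967). The STZ mice lay on both sides of the untreated mice.

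No gene of the lid was called in any comparison. A dimmer probe set of Psmd13 (mean signal 198) differed by 0.40 between 0.1% phloridzin and untreated mice, and the brightest by 0.31 (limma adjusted p over single-gene probe sets = 0.0451 and 0.225). Psmd14, which removes ubiquitin from substrates, was 994, 972, 939, 861 and 957 in untreated mice and 865, 987, 866, 1088 and 984 with STZ (0.02 ± 0.11, adjusted p = 0.940). It was 1038, 959.8, 828, 905 and 989.8 with 0.1% phloridzin and 1073, 900.3, 721, 842 and 738 with 0.5%, where 3 of 5 mice lay below the untreated range (−0.15, adjusted p = 0.374). Psmd11, a scaffold subunit of the lid, was 2227, 2146, 2103, 1775 and 2161 in untreated mice and 1849, 1713, 1809, 2452 and 1717 with STZ (−0.13 ± 0.11, adjusted p = 0.469). It differed by −0.22 and −0.23 with 0.1% and 0.5% phloridzin (adjusted p = 0.186 and 0.198). 1 mouse in each of the untreated and STZ groups lay far from the other 4.

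The chaperone gene Psmd9, whose product holds ATPases of the base during assembly, had the largest difference of the 38. It was 271, 269, 263, 311 and 250.5 in untreated mice and 359, 551, 528, 495 and 581 with STZ. It was 372, 418, 561, 417 and 755 with 0.1% phloridzin and 703, 389, 522, 359 and 647 with 0.5%. All 15 injected mice lay above all untreated mice, and the injected mice spread widely (359 to 755). The mean rose from 273 ± 22.7 (SD, n = 5) to 503 ± 86.4 with STZ, 1.78-fold (0.83 ± 0.19, adjusted p = 0.00666). It was 1.75-fold higher with 0.1% phloridzin (0.81, adjusted p = 0.00703) and 1.81-fold with 0.5% (0.86, adjusted p = 0.00603). A dimmer probe set (mean signal 67.5) gave 0.82, 0.80 and 0.94 with STZ, 0.1% and 0.5% phloridzin (limma adjusted p over single-gene probe sets = 0.066, 0.060 and 0.037). The third, with a mean signal of 10.3, gave 0.39, 0.07 and 0.51 (adjusted p = 0.10, 0.82 and 0.030 by the same fit). The other assembly chaperones, Psmd5 and Psmd10, were not called.

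Psmb10, Psmd9 and Psma5 kept their direction in all 31 alternative fits of each comparison with untreated mice (other scalings, filters and models, and each array left out). Psmb10 and Psmd9 kept their calls in all of them, and Psma5 lost its call once, with STZ and the mean of probe sets, as given above.

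Phloridzin against STZ asks whether the inhibitor moved these transcripts in diabetic mice. None of the 38 genes was called for 0.1% phloridzin against STZ, 0.5% against STZ or 0.5% against 0.1%, where limma called 0 of 12955 genes (a background of 0%). At an unadjusted p under 0.05, 0 of the 38 passed in each comparison, against 5.28%, 4.82% and 6.48% of all genes, and no gene of the 38 had groups that did not overlap, against 0.679%, 0.849% and 0.803% of all genes. The median differences over the 38 were −0.02, −0.04 and −0.03, against −0.004, 0.02 and 0.02 over all genes. The 2 phloridzin groups were compared with the same 5 STZ mice.

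**Figure D3:**
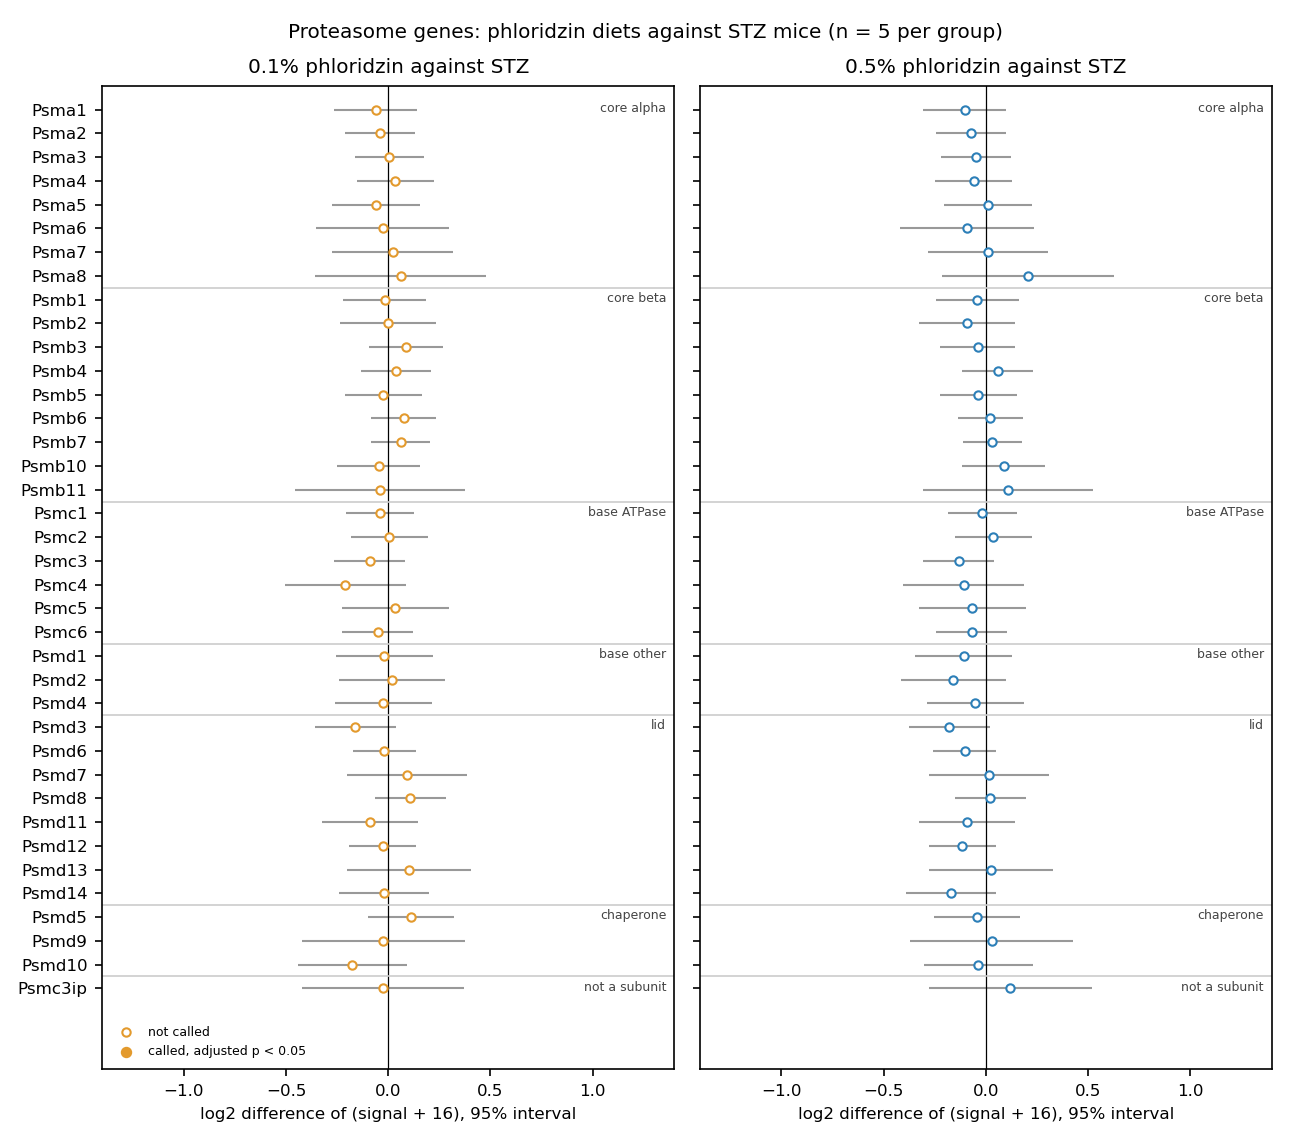
Log2 difference of (signal + 16) from STZ mice for each of the 38 genes in the 0.1% and 0.5% phloridzin groups, with 95% intervals of the fit; open points are not called. The intervals of all genes reach 0, and no point is filled.

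Of the genes that moved with STZ, Psmb10 differed by −0.05 with 0.1% phloridzin (95% interval −0.25 to 0.16) and by 0.09 with 0.5% (−0.12 to 0.29) from STZ mice. Psmd9 differed by −0.02 (−0.42 to 0.37) and 0.03 (−0.37 to 0.43). Psma5 differed by −0.06 (−0.28 to 0.16) and 0.01 (−0.21 to 0.23). Psmc2 differed by 0.004 and 0.04, and Psma6 by −0.03 and −0.09. These values missed the threshold, which does not show that the groups were alike.

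The smallest p against STZ was that of Psmd3, a lid subunit, in both phloridzin groups: −0.16 ± 0.10 with 0.1% (368 ± 54.5 against 411 ± 28.8, SD, n = 5, adjusted p = 0.922) and −0.18 ± 0.10 with 0.5% (adjusted p = 0.996). Psmc4 was next with 0.1% (−0.21 ± 0.14, adjusted p = 0.937) and Psmd14 with 0.5% (−0.17 ± 0.11, adjusted p = 0.996). Between the 2 doses Psmd5 had the smallest p (−0.16 ± 0.10 for 0.5% against 0.1%, adjusted p = 0.815), followed by Psmb3 (−0.13 ± 0.09, adjusted p = 0.831). Across the 38 genes the 95% intervals had a median half-width of 0.21 log2 units, so changes smaller than this lie within the error of a single gene.

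The core and the regulatory particle were set against each other by the median difference of their genes and by a score per mouse, the mean of the genes of each particle after centring on the 20 arrays. With STZ the median was 0.09 for the 17 core genes and 0.05 for the 17 regulatory genes, against −0.05 over all genes. With 0.1% phloridzin it was 0.05 and 0.02 against untreated mice, and with 0.5% 0.09 and −0.04. Without Psma8 and Psmb11, at background, the core median was 0.13 with STZ, 0.12 with 0.1% and 0.09 with 0.5% phloridzin, and the core minus regulatory difference 0.077, 0.099 and 0.130, against 0.039, 0.027 and 0.133 with them. Without Psmb10 as well, the median of the 14 core genes left was 0.06, 0.09 and 0.05 in the same order. Of these 14 genes 2, 4 and 2 were called (14.3%, 28.6% and 14.3%). Between phloridzin and STZ mice the medians were −0.0004 and −0.02 with 0.1% and −0.04 and −0.09 with 0.5%. Of the core genes 3, 5 and 3 were called against untreated mice in the order STZ, 0.1% and 0.5%, and of the regulatory genes 1, 1 and 0. As shares these are 17.6%, 29.4% and 17.6% of the core genes and 5.88%, 5.88% and 0% of the regulatory genes, beside 13.8%, 16.8% and 12.7% of all genes, and the difference between the particles was not tested.

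The score of the core minus that of the regulatory particle was −0.049 ± 0.040 (SD, n = 5) in untreated mice, from −0.100 to −0.003. It was −0.017 ± 0.056 with STZ (−0.089 to 0.066), 0.011 ± 0.103 with 0.1% phloridzin (−0.090 to 0.155) and 0.055 ± 0.064 with 0.5% (0.001 to 0.127). The 0.5% mice lay above the untreated mice without overlap, and the other groups overlapped with both. Without Psma8 and Psmb11, which are at background, the 0.5% mice ranged from −0.038 to 0.109 and the untreated mice from −0.080 to −0.013, and the groups overlapped. The core minus regulatory difference of medians with STZ was 0.04, and it was −0.041 without STZ replicate 3 and 0.11 without STZ replicate 4. It was −0.048 with the mean of probe sets.

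**Figure D4:**
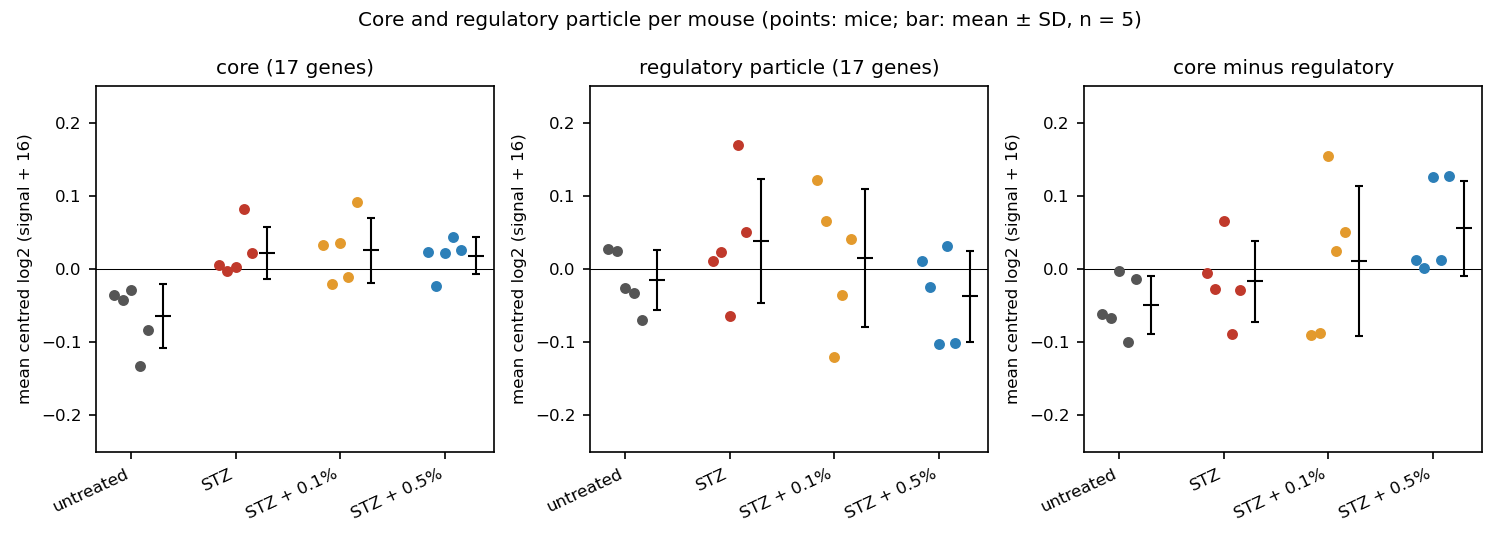
Mean centred log2 (signal + 16) per mouse over the 17 core genes, over the 17 regulatory particle genes, and the first minus the second, in the 4 groups; points are mice and bars the mean ± SD (n = 5). Untreated mice lie lowest in the core panel, from −0.133 to −0.029, and the groups overlap in the regulatory panel.

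The core score itself was −0.065 ± 0.044 in untreated mice (−0.133 to −0.029) and 0.021 ± 0.035 with STZ (−0.003 to 0.082), without overlap. It was 0.025 ± 0.044 with 0.1% phloridzin and 0.018 ± 0.025 with 0.5%, both above all untreated mice. The largest differences of core genes with STZ were those of Psmb10 and Psma6 (0.58 and 0.52). Of the 17 core genes 9 lay above 0 with STZ (52.9%, against 42.7% of all genes). The core score was not computed without Psmb10 and Psma6, so it does not show a rise of the core as a whole. Without Psma8 and Psmb11 it was −0.104 to −0.036 in untreated mice, −0.029 to 0.116 with STZ, 0.011 to 0.090 with 0.1% and −0.063 to 0.037 with 0.5% phloridzin, and the 0.5% mice then overlapped with the untreated mice. The regulatory score was −0.016 ± 0.041, 0.038 ± 0.085, 0.015 ± 0.094 and −0.037 ± 0.062 in the same order, with overlap between all groups. In STZ replicate 4 the regulatory score was 0.170, and 30 of the 35 genes above background lay above their mean over the 20 mice. The median signal of that array, 11.2, was the lowest of the 20, and its part in the score was not tested.

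The 35 genes above background varied little within a group. Their median SD within groups was 0.13 log2 units, from 0.05 for Psmb7 to 0.32 for Psmd9. Over all genes kept it was 0.23, but these include genes with a mean signal down to 8.99. Genes of like signal were not compared, so the lower SD cannot be read as a trait of the proteasome genes.

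Psmd9, the most variable, was set against the other 34 genes across the 15 injected mice after removal of the group means. This relation was looked at after the values had been seen, and the p are two-sided from 100000 permutations within groups and are not adjusted for the 34 relations. Psma7 ran with Psmd9 (r = 0.86, permutation p = 5e-05, rho = 0.82, permutation p = 0.00065), as did Psma6 (r = 0.85, permutation p = 0.00065, rho = 0.80, permutation p = 0.00284) and Psmd13 (r = 0.82, permutation p = 0.00088, rho = 0.79, permutation p = 0.00124). Psmd2 (r = −0.79, permutation p = 0.00125, rho = −0.76, permutation p = 0.00252) and Psmd10 (r = −0.75, permutation p = 0.00256, rho = −0.78, permutation p = 0.00273) ran against it. Without the 2 mice farthest from the median of Psmd9 the r were 0.86, 0.86, 0.81, −0.82 and −0.77 in the same order.

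The same measure over the other 12954 genes gave an r of 0.75 or more for 4.49% of them and of −0.75 or less for 6.93%. The members stood at 3 of 34 (8.82%) and 2 of 34 (5.88%), so relations of this size were common on these arrays. Psmd9 had an r of −0.23 with log2 of the median signal of the array (rho = −0.21) in the same mice.

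**Figure D5:**
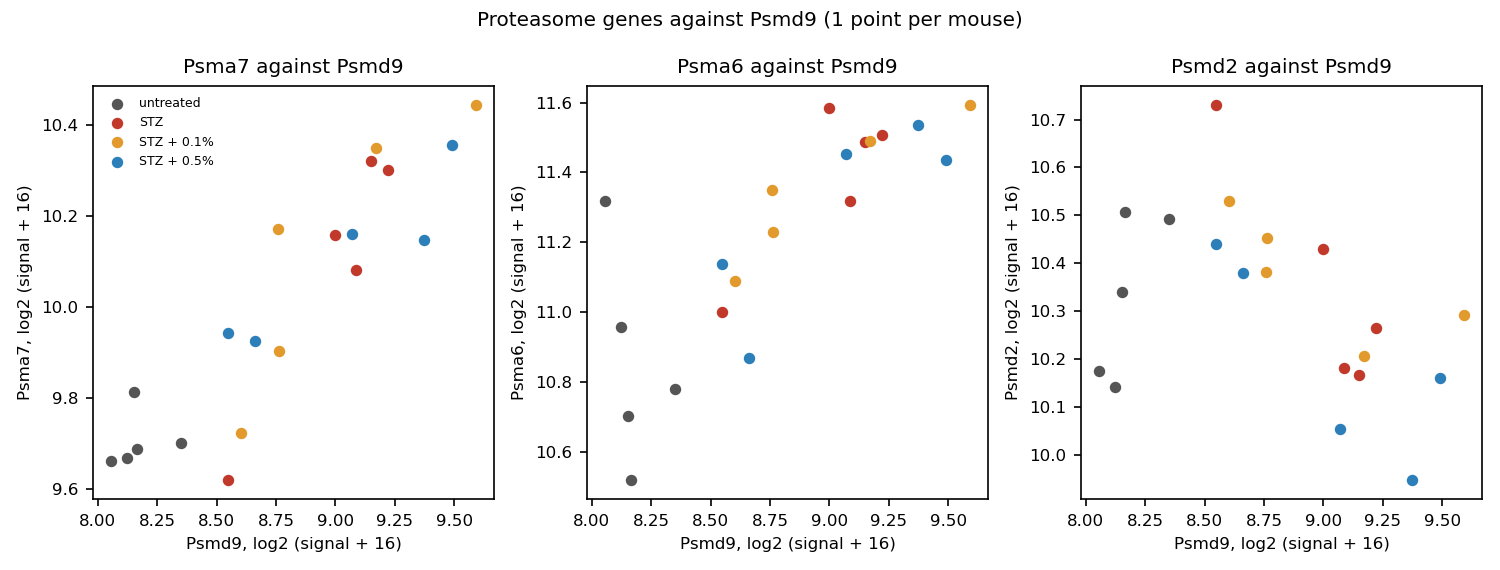
Log2 (signal + 16) of Psma7, Psma6 and Psmd2 against that of Psmd9, 1 point per mouse, coloured by group. Psma7 and Psma6 are higher and Psmd2 is lower in injected mice with more Psmd9, in all 3 injected groups.

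Of 38 further genes of the pathway, 29 were measured. With STZ 4 were called higher and 2 lower, against 13.8% of all genes, with a median difference of −0.01. With 0.1% phloridzin against untreated mice 4 were higher and 2 lower (16.8% of all genes), with 0.5% 5 and 1 (12.7%), and in the 3 comparisons among injected mice none was called. Psmf1, which encodes the inhibitor PI31, rose with STZ by 0.39 ± 0.09 (303 against 226.5, adjusted p = 0.00924), and by 0.48 and 0.45 with the phloridzin diets. With the mean of probe sets it differed by 0.16, 0.11 and 0.03 and was not called. Nfe2l2, which encodes the transcription factor NRF2, rose by 0.46 ± 0.13 with STZ (772 against 553, adjusted p = 0.0178), by 0.52 with 0.1% (adjusted p = 0.00792) and by 0.44 with 0.5% phloridzin (adjusted p = 0.0250). The last of these was not called without untreated replicate 1 or 2 or 0.5% phloridzin replicate 2 or 4 (adjusted p = 0.0614 at most), nor in a fit of the groups compared only (adjusted p = 0.0502).

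Nfe2l1, which encodes NRF1, the factor that raises proteasome gene transcription when the proteasome is inhibited, differed by −0.20 ± 0.10 with STZ (adjusted p = 0.223) and was called lower with 0.5% phloridzin (−0.32, adjusted p = 0.0470). That call was lost with a replicate block, without a filter and in 15 of 20 fits that left out 1 array. Zfand5, a ubiquitin-binding protein, was called higher in all 3 comparisons with untreated mice (0.39, 0.51 and 0.59), the STZ call was lost in 8 of 20 fits that left out 1 array (adjusted p = 0.0793 at most), and its brightest probe set without a suffix of x or s gave 0.06, 0.18 and 0.12 and no call. Ubqln2, a shuttle of ubiquitinated proteins, was called lower with STZ (−0.35 ± 0.11, adjusted p = 0.0380) and with 0.1% phloridzin (−0.42, adjusted p = 0.0124). The STZ call was lost in 7 of 20 fits that left out 1 array (adjusted p = 0.106 at most), and with median centring (0.0646), no filter (0.0501) or the mean of probe sets (0.0635), where the 0.1% phloridzin call was lost too (0.0571).

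Some other measures also differed between untreated and injected mice, and others overlapped. The summed signal of the 2 measured pancreas markers was 1455 to 1948 in untreated mice and 347 to 933 over the injected mice, with Prss2 at background, and Cela1 was called lower with STZ (−1.52 ± 0.29, adjusted p = 0.00163). Of 6 fibroblast and stellate cell markers 2 were called lower with STZ, Col3a1 and Pdgfrb (−1.35 and −1.11). Of the other 4 fibroblast and stellate cell markers none was called with STZ (Dcn 0.11, Lrat 0.19, Col1a1 −0.09 and Des −0.08), and the median of the 6 was −0.08. The 3′ to 5′ ratio of the Gapdh control was 0.698 to 1.08 in untreated mice and 0.690 to 0.792 with STZ, and that of beta actin 1.62 to 2.48 and 1.76 to 2.36, with overlap for both. The bioD signal was 2349 to 3210 in untreated mice and 1816 to 2417 with STZ. It was 1968 to 9793 with 0.1% and 1994 to 2348 with 0.5% phloridzin. Their part in the results above was not tested.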

How the data were processed

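Liver RNA of 20 mice was measured on 1 Affymetrix array each. The authors deposited linear signal intensity values, scaled to a 2% trimmed mean of 100 on every array as the values show. The software that made them was not given in the sources used here. Probe sets were named from the platform annotation (45101 probe sets, 9160 with no listed gene and 932 with several, which were left out, as were 64 controls), and the brightest probe set stood for a gene. Genes whose mean signal reached the 40th percentile (8.99) were kept. limma 3.58.1 in R 4.3.3 was fitted to log2(signal + 16) with 4 group means (16 residual and 4.54 prior degrees of freedom), with Benjamini-Hochberg adjustment over 12955 genes, and was tested on simulated data. The genes named are the called members and, in comparisons without a call, those with the smallest p; Psmb5, Psmb7, Psma7, Psmd4, Psmd11 and Psmd14 show roles or wide spread and were chosen with their values known. Members and lists were chosen with earlier results of these data known. The limma p-values set a difference of group means against a spread between mice that the 4 groups share, and the number of arrays limits precision. No pairing of mice by replicate number was stated, and the main fit used none. Of 30 pairs of same-numbered mice, 13 correlated over 0.1 (r from −0.40 to 0.50). Mice of different numbers were not compared, so this cannot show whether mice were paired. Alternatives covered scaling, filter, probe set choice, pseudocount, model, block and each array left out.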

Additional observations from a re-analysis of the deposited data

Results flagged for a closer look

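In each group of 5 mice, the highest or lowest mouse was set against the other 4 by Dixon's ratio for 16 genes and 3 scores. It passed the 95% limit in 6 of 76 groups, where chance gives about 1 in 20. Genes among the 16 were chosen with their values known, some for wide spread, and all come from the same mice. The share therefore cannot be held against that rate. Psma7 was 884.6 in untreated replicate 2, against 793.8 to 816.7 in the other untreated mice. Psmd11 was 1775 in untreated replicate 4, against 2103 to 2227, and 2452 in STZ replicate 4, against 1713 to 1849. Psmb7 was 3764 in 0.1% phloridzin replicate 5, against 3600 to 3632 in the other mice of that group, and Psmc2 was 1308 in the same mouse, against 1461 to 1522. Psmb6 was 1302 in 0.5% phloridzin replicate 2, against 1439 to 1484.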

How the results depend on the processing

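Of 576 alternative values of the counts, medians and core minus regulatory differences, 557 stayed within 1.5 times the count or 1 SD between replicates (0.0454 for the medians and 0.0697 for the core minus regulatory values). Of 2604 alternative values of single genes, 2460 kept their side of the threshold, 143 lost a call, 1 gained one and 0 changed sign while called. Many of the 2604 belong to genes not called in the main fit, which had no call to lose. The share that kept their side therefore does not measure how firmly the calls held. The sign of a gene called in neither fit was not compared, and it could change, as for Psmd11 with STZ (−0.13, and up to 0.06). With array weights 8 members were called with STZ (5 higher, 3 lower) and 8 with 0.5% phloridzin (5 higher, 3 lower). Without probe sets of the suffix x or s, an alternative chosen after seeing the data, 3 were called with STZ (2 higher, 1 lower). With median centring the median member difference with STZ was 0.11. The core minus regulatory difference with STZ was −0.048 with the mean of probe sets. With 0.1% phloridzin against untreated mice it was 0.099 with the 60th percentile filter, 0.10 with a pseudocount of 1, and 0.099 without members at background (also chosen after seeing the data). Each array left out in turn gave 3 to 6 members called with STZ, 3 to 8 with 0.1% and 4 to 7 with 0.5% phloridzin against untreated mice, and a core minus regulatory difference with STZ of −0.041 to 0.112. The cause was not tested. With the replicate block, 5, 7 and 5 members were called against untreated mice and 0 in the other comparisons, and of the other pathway genes Ngly1 (adjusted p = 0.0614) and Nfe2l1 (adjusted p = 0.0655) lost their calls with 0.1% and 0.5% phloridzin. There were 5 arrays per group, and the median half-width of a member's 95% interval was 0.21, which limits what could be seen between injected groups.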
